A study of Homo sapiens with 22 samples.

Results

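The 8 genes described here encode the FOS proteins (FOS, FOSB, FOSL1 and FOSL2), the JUN proteins (JUN, JUNB and JUND) and BATF3. They were chosen by name as rows of the count table, and all 8 were found among its 48162 gene IDs. All 8 passed the filter on low counts, which 16694 genes passed. The cells were HEK293, a line derived from human embryonic kidney, and RNA was sequenced in 12 libraries, 2 in each of 6 groups. In 4 groups the cells carried a guide to HBB, which encodes beta-globin, and a fusion to dCas9, a Cas9 that binds DNA at a guide's site without cutting it. VPR is a chain of the VP64, p65 and Rta activation domains. The p300 fusion carries an acetyltransferase that the EP300 gene encodes, the D1399Y form has a substitution known to impair acetylation, and VPRP carries both VPR and p300. The fifth group, VPRP NonTarget, had VPRP with a non-target guide. The sixth group, WT, carried a guide but no fusion, and the labels do not say which guide. The protocol gives dox for 48 hours to induce the fusions, with GFP and BFP double-positive cells sorted (BFP alone for WT) before RNA was taken. The labels call WT "No treatment" and do not say whether any line was 1 clone.

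FOS and JUN proteins pair through a leucine zipper to form AP-1, a transcription factor that binds DNA as a dimer. JUN proteins can pair with one another or with FOS proteins, while FOS proteins need a partner such as a JUN protein. FOS, FOSB, JUN and JUNB are immediate early genes, whose transcription rises within minutes when growth factors or stress act through MAP kinases, and whose RNA is short-lived. JUND is expressed more steadily. BATF3, a smaller zipper protein, pairs with JUN proteins and is known for its part in dendritic cells.

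The promoters of 4 members are shown because RNA from these 4 genes differed between active p300 and both p300 D1399Y and VPR. Each line gives the 250 bases before the RefSeq transcription start (build GRCh38.p14), read 5′ to 3′ on the strand of the gene. Capitals mark TGACG (on either strand, printed as CGTCA where it lies on the other), the core of the cAMP response element that CREB and ATF proteins bind, and its full form TGACGTCA. They also mark TGACATCA, an AP-1-like site known from JUN, and TATAAA, the TATA box.
FOS: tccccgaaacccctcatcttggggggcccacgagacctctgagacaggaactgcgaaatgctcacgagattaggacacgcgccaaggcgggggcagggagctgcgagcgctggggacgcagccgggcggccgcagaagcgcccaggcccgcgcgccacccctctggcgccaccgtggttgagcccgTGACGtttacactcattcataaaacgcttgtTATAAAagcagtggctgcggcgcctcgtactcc
FOSB: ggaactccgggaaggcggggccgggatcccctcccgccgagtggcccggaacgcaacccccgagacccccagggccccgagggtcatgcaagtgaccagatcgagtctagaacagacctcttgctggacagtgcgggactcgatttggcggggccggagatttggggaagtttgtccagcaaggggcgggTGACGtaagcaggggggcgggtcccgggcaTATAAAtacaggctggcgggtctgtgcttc
JUN: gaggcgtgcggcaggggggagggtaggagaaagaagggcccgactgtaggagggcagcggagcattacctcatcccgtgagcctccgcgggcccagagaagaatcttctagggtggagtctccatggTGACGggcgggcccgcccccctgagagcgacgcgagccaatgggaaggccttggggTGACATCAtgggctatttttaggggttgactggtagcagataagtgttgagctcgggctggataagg
JUND: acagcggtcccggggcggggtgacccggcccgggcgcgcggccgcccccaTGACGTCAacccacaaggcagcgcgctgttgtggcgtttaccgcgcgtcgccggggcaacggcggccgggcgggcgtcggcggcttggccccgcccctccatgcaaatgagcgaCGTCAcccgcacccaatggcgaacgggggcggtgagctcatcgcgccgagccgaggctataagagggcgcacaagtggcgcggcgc
FOS lies at chr14:75278578-75278827 on the plus strand, FOSB at chr19:45467746-45467995 on the plus strand, JUN at chr1:58784048-58784297 on the minus strand and JUND at chr19:18281623-18281872 on the minus strand.

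The set of RefSeq promoters used here held 6 of the 8 members, all except FOSL1 and BATF3. Searched on both strands, TGACG was in 6 of these 6 and in 21.2% of 35116 promoter windows of the same length. In FOS it began 64 bases before the start and in FOSB 60 bases before, each followed by TATAAA, which began 33 bases before the start in FOS and 30 bases before in FOSB. TATAAA, searched on the gene's strand, was also in JUNB, and in 6.80% of all windows. The full TGACGTCA, which contains TGACG on both strands, was in JUND, beginning 200 bases before the start, and in 1.65% of windows. TGACATCA was in JUN, beginning 67 bases before the start, and in 2.37% of windows. TGANTCA, the consensus AP-1 site, was in none of the 6 windows and in 6.57% of all. The CArG box that serum response factor binds was in none of the 6 windows and in 1.16% of all. Bases further upstream than these windows, or after the start, were not searched. A motif missing from a window may therefore still lie elsewhere near the gene, for FOS as for the others. A match is a run of letters and was not tested as a site here.

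Library totals ran from 14894558 to 17479523 counts. Levels are in CPM, the usual library-size unit for counts, here with TMM scaling factors applied, so they can be compared between groups for 1 gene but not between genes, whose lengths differ. HBB was counted at 0 in the 4 libraries of WT and VPRP NonTarget and at 65.8 to 1732 CPM in the 8 libraries with the HBB guide and a fusion. EP300 reads, which the native gene and a p300 fusion can share, were at 1124 ± 11.2 CPM (SD, n = 2) in p300 and 195 ± 1.19 CPM in p300 D1399Y, a 5.78-fold difference, so these 2 groups differed in EP300 RNA as well as in the substitution. EP300 was at 375 CPM in VPRP sgHBB, 1172 CPM in VPRP NonTarget, 107 CPM in WT and 98.7 CPM in VPR. The libraries also split by MAGEA10, at 0 to 0.261 CPM in p300, p300 D1399Y and VPRP sgHBB and at 9.34 to 32.1 CPM in WT, VPR and VPRP NonTarget. Active p300 and D1399Y lie on the same side of that split, and either against VPR crosses it. None of 8 HEK293 markers was at 0 in any group, but their sum moved with the groups, at 484 to 489 CPM in WT, 457 to 467 CPM in D1399Y, 376 to 399 CPM in VPR, 359 to 360 CPM in active p300, 284 to 295 CPM in VPRP sgHBB and 253 to 255 CPM in VPRP NonTarget. With active p300, 1 of the 8 was called higher and 4 lower than with D1399Y, by the test given below. Of all genes, 15.4% were higher and 15.0% lower there. With VPRP NonTarget 1 was higher and 5 were lower than in WT, where 31.2% of all genes were higher and 28.5% lower. Blood markers summed to at most 2.95 CPM, liver markers to at most 0.668 CPM and endothelial markers to at most 2.05 CPM. Fibroblast markers summed to 16.8 to 18.5 CPM in WT, 26.4 to 31.5 CPM in VPR, 31.9 to 32.4 CPM in p300, 37.0 to 43.9 CPM in p300 D1399Y, 62.6 to 65.4 CPM in VPRP sgHBB and 42.8 to 43.7 CPM in VPRP NonTarget. Of 3 epithelial markers KRT5 was at 0 in WT, VPR and D1399Y, and their sum was 7.93 to 9.31 CPM in WT, 15.3 to 18.1 CPM in VPR, 14.2 to 15.3 CPM in p300, 19.5 to 21.2 CPM in p300 D1399Y, 19.8 to 20.4 CPM in VPRP sgHBB and 11.1 to 12.3 CPM in VPRP NonTarget. The part of these markers, of EP300 RNA and of the MAGEA10 split in the results below was not tested.

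With active p300, 4 of the 8 genes (FOS, FOSB, JUN and JUND) were higher than with p300 D1399Y and 1 (BATF3) was lower. The same 4 genes and FOSL2 were higher with active p300 than with VPR, and none was lower. Between p300 D1399Y and VPR, 1 of 8 differed: JUN was lower with D1399Y. Genes were called at an adjusted p under 0.05, from the quasi-likelihood test of edgeR adjusted by Benjamini and Hochberg's method over all genes tested. Of all 16694 genes, 30.4% were called between active p300 and D1399Y (15.4% higher and 15.0% lower), 34.3% between active p300 and VPR (17.2% higher and 17.0% lower) and 21.1% between D1399Y and VPR (10.2% higher and 10.9% lower). The median log2 difference of the 8 members was 0.33 for p300 over D1399Y, 0.65 for p300 over VPR and 0.42 for D1399Y over VPR, against 0.01, -0.00 and -0.00 over all genes. The 3 comparisons share libraries, so they are not independent of one another. In bulk RNA, fewer cells with a transcript and less of it per cell cannot be told apart.

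**Figure D1:**
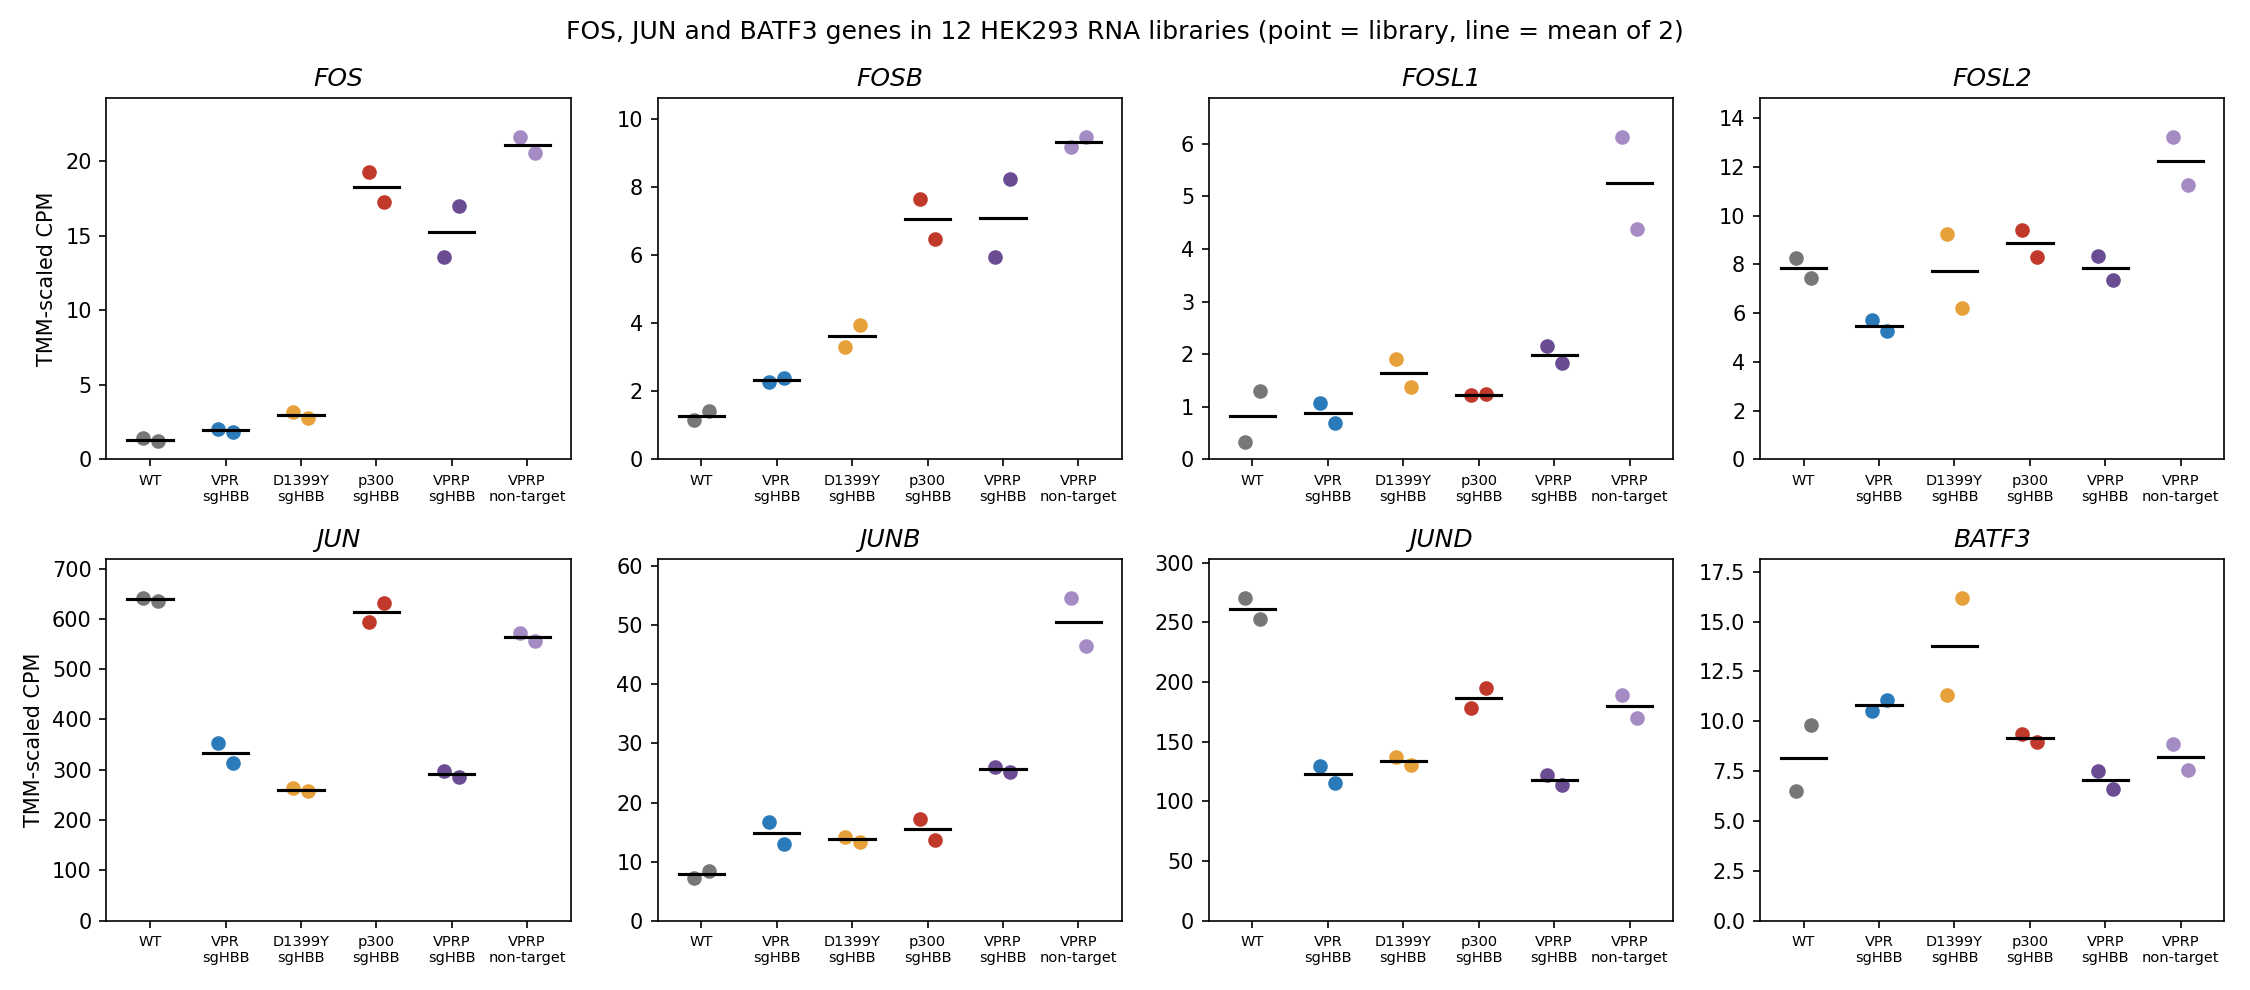
TMM-scaled CPM of the 8 genes in each of the 12 libraries, by group, with a panel and a linear y axis for each gene; points are libraries and lines are means of 2. FOS sits between 13.6 and 21.6 CPM in active p300 and both VPRP groups and between 1.23 and 3.18 CPM in WT, VPR and D1399Y, while JUN sits between 557 and 642 CPM in WT, active p300 and VPRP NonTarget and between 257 and 352 CPM in the other 3 groups.

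FOS (ENSG00000170345), the founding FOS protein, was at 19.3 and 17.3 CPM in the 2 libraries of active p300 and at 3.18 and 2.77 CPM in those of D1399Y. It was at 2.03 and 1.85 CPM with VPR and at 1.41 and 1.23 CPM in WT. Both active p300 libraries lay above all 6 libraries of these other 3 groups. FOS was 6.10-fold higher with active p300 than with D1399Y (log2 2.61, SE 0.178, adjusted p = 1.76e-13) and 9.38-fold higher than with VPR (log2 3.23, SE 0.194, adjusted p = 3.28e-15). D1399Y over VPR was 0.62 on the log2 scale (95% interval 0.11 to 1.13, adjusted p = 0.0781), which did not pass the threshold, though the libraries did not overlap. The libraries with D1399Y held 40 and 55 FOS reads and those with VPR 27 and 32, so counting error was large there.

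FOSB (ENSG00000125740), the closest relative of FOS, was at 7.65 and 6.48 CPM with active p300, 3.29 and 3.94 CPM with D1399Y, 2.28 and 2.39 CPM with VPR and 1.14 and 1.42 CPM in WT. The 4 groups did not overlap and stood in the same order as for FOS. Active p300 was 1.96-fold above D1399Y (log2 0.97, SE 0.22, adjusted p = 0.000892) and 3.02-fold above VPR (log2 1.59, SE 0.237, adjusted p = 2.29e-06). D1399Y over VPR did not pass the threshold (log2 0.62, 95% interval 0.09 to 1.15, adjusted p = 0.0877).

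FOSL1 (ENSG00000175592), also called FRA1, was counted in 5 to 33 reads a library in WT and the 3 single fusions. Its levels were 1.22 and 1.24 CPM with active p300, 1.91 and 1.38 CPM with D1399Y, 1.08 and 0.684 CPM with VPR and 0.336 and 1.29 CPM in WT. The 2 WT libraries were further apart than the means of WT and active p300. No difference among the 3 fusions passed the test. The log2 value was -0.43 for p300 over D1399Y (95% interval -1.29 to 0.43), 0.47 for p300 over VPR (-0.49 to 1.43) and 0.90 for D1399Y over VPR (-0.03 to 1.82), intervals that leave room for changes of over 2-fold.

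FOSL2 (ENSG00000075426), or FRA2, was at 9.42 and 8.30 CPM with active p300, 9.25 and 6.22 CPM with D1399Y and 5.70 and 5.27 CPM with VPR. The D1399Y libraries spanned those of active p300 in part, and VPR lay below all others. Active p300 exceeded VPR by 0.69 on the log2 scale (SE 0.192, adjusted p = 0.00501), and this call was lost without p300 replicate 1 (adjusted p = 0.0613). Neither p300 over D1399Y (log2 0.18, 95% interval -0.19 to 0.55) nor D1399Y over VPR (log2 0.51, 95% interval 0.11 to 0.90, adjusted p = 0.0614) passed the threshold. The latter passed without D1399Y replicate 2 (adjusted p = 0.0137).

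JUN (ENSG00000177606), which can act as a homodimer or with a FOS protein, gave the most precise values, with 3715 to 10738 reads a library. It was at 594 and 632 CPM with active p300, 263 and 257 CPM with D1399Y, 352 and 313 CPM with VPR and 642 and 636 CPM in WT. Active p300 lay with WT, and D1399Y and VPR lay far below both. JUN was 2.36-fold higher with active p300 than with D1399Y (log2 1.24, SE 0.0708, adjusted p = 1.38e-15) and 1.84-fold higher than with VPR (log2 0.88, SE 0.0701, adjusted p = 4.63e-12). D1399Y was below VPR by a smaller step (log2 -0.35, SE 0.0706, adjusted p = 0.00033). Active p300 differed from WT by -0.06 (95% interval -0.20 to 0.08, adjusted p = 0.509), an interval that leaves out the falls measured with D1399Y (log2 -1.30, SE 0.0709) and VPR (log2 -0.94, SE 0.0702).

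JUND (ENSG00000130522), the steadily expressed JUN protein, was at 178 and 195 CPM with active p300, 137 and 131 CPM with D1399Y, 129 and 115 CPM with VPR and 270 and 253 CPM in WT. Every fusion library of these groups lay below both WT libraries, and active p300 lay between WT and the other fusions. Active p300 exceeded D1399Y by 0.48 (SE 0.0764, adjusted p = 9.52e-06) and VPR by 0.61 (SE 0.0769, adjusted p = 1.25e-07) on the log2 scale. D1399Y over VPR did not pass (log2 0.13, 95% interval -0.03 to 0.28).

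JUNB (ENSG00000171223), an early gene whose protein can oppose JUN, was at 17.2 and 13.7 CPM with active p300, 14.2 and 13.3 CPM with D1399Y, 16.7 and 12.9 CPM with VPR and 7.26 and 8.41 CPM in WT. The 3 fusions overlapped one another and lay above WT. The log2 value was 0.16 for p300 over D1399Y (95% interval -0.12 to 0.45), 0.06 for p300 over VPR (-0.23 to 0.34) and -0.11 for D1399Y over VPR (-0.40 to 0.18). These intervals leave out differences as large as those of FOS and JUN between active p300 and D1399Y.

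BATF3 (ENSG00000123685) was at 9.36 and 8.95 CPM with active p300, 11.3 and 16.2 CPM with D1399Y, 10.5 and 11.1 CPM with VPR and 6.52 and 9.83 CPM in WT. The 2 D1399Y libraries were the highest and the furthest apart. Active p300 was below D1399Y (log2 -0.58, SE 0.177, adjusted p = 0.0123), and the call was lost without p300 replicate 1 (adjusted p = 0.0542), p300 replicate 2 (adjusted p = 0.0818) or D1399Y replicate 2 (log2 -0.31, adjusted p = 0.305). Active p300 over VPR did not pass (log2 -0.24, 95% interval -0.61 to 0.13). D1399Y over VPR did not pass either (log2 0.34, 95% interval -0.02 to 0.70), except without D1399Y replicate 1 (log2 0.59, adjusted p = 0.0454).

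**Figure D2:**
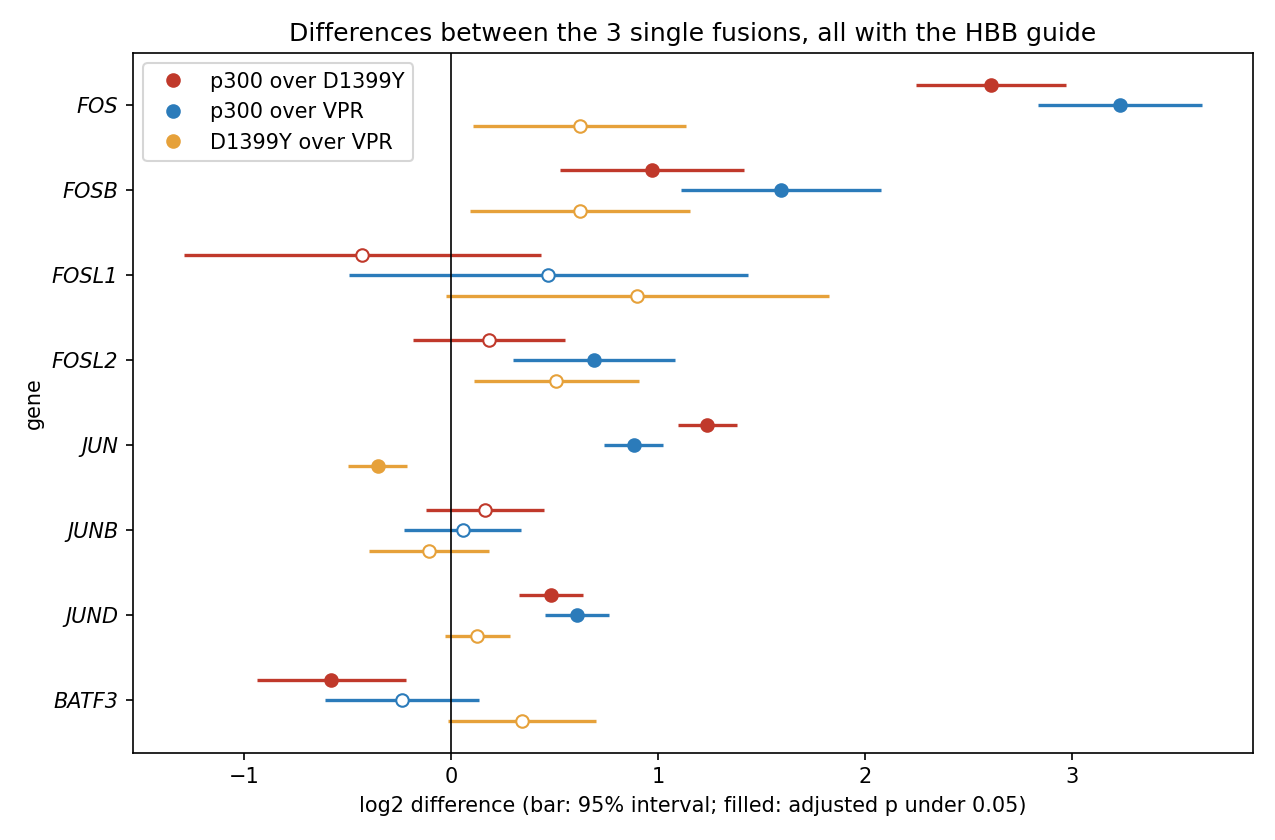
Log2 differences of the 8 genes between the 3 single fusions, with 95% intervals as bars; filled points passed an adjusted p of 0.05. FOS stands furthest to the right for p300 over D1399Y (2.61) and p300 over VPR (3.23), JUN is the single filled point for D1399Y over VPR (-0.35), and the bars of JUNB cross 0 in all 3 comparisons.

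In each fusion group some FOS and JUN genes were higher than in WT and others lower. JUNB and FOSB were higher and JUND lower in all 5 fusion groups, and JUN was lower in the 4 other than active p300. All 5 comparisons share the 2 WT libraries. With VPR, 2 members rose and 2 fell, where 25.3% of all genes were called (13.8% higher and 11.5% lower). With active p300, 3 rose and 1 fell, where 46.1% of all genes were called (24.5% higher and 21.6% lower). With D1399Y, 4 rose and 2 fell, where 30.2% of all genes were called (15.7% higher and 14.5% lower). With VPRP sgHBB, 4 rose and 2 fell, where 59.1% of all genes were called (31.1% higher and 28.0% lower). With VPRP NonTarget, 5 rose and 2 fell, where 59.7% of all genes were called (31.2% higher and 28.5% lower). Of 13 mitochondrially encoded transcripts, a list kept as a sign of RNA and cell quality, 8 to 11 were higher than in WT in each fusion group and none was lower. Their sum was 19191 to 21839 CPM in WT and 22343 to 35225 CPM in the fusion libraries, and its part in these differences was not tested.

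FOS rose 13.8-fold over WT with active p300 (log2 3.78, SE 0.209, adjusted p = 2.21e-16), 11.6-fold with VPRP sgHBB (log2 3.53, SE 0.213) and 15.9-fold with VPRP NonTarget (log2 3.99, SE 0.206). With D1399Y it rose 2.26-fold (log2 1.17, SE 0.275, adjusted p = 0.00115), and with VPR the value was 0.55 (95% interval -0.06 to 1.17, adjusted p = 0.184). FOSB rose by 2.45, 2.46 and 2.85 on the log2 scale with active p300, VPRP sgHBB and VPRP NonTarget, by 1.48 with D1399Y and by 0.86 with VPR. The VPR call for FOSB (adjusted p = 0.0433) rested on 17 to 36 reads a library and was lost with DESeq2 (adjusted p = 0.0668), with no filter on low counts (0.0658), in a fit of these 2 groups alone (0.141), without either VPR library, without either WT library (adjusted p = 0.0856 to 0.213 over these 4) and without either VPRP NonTarget library.

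JUN fell by 0.94 with VPR, 1.30 with D1399Y and 1.13 with VPRP sgHBB on the log2 scale (SE 0.0702 to 0.0709). Its difference with VPRP NonTarget was smaller (log2 -0.18, SE 0.0691, adjusted p = 0.0259), and that call was lost with upper-quartile scaling (adjusted p = 0.104), without WT replicate 1 or 2 and without VPRP NonTarget replicate 2. JUND fell by 1.09 with VPR, 0.97 with D1399Y, 1.15 with VPRP sgHBB, 0.54 with VPRP NonTarget and 0.49 with active p300. JUNB rose by 0.92 with VPR, 0.81 with D1399Y and 0.97 with active p300, by 1.71 with VPRP sgHBB and by 2.69 with VPRP NonTarget. JUN and JUND thus moved against FOS, FOSB and JUNB in D1399Y and both VPRP groups.

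FOSL1 rose by 2.66 with VPRP NonTarget (SE 0.404, adjusted p = 8e-07) and by 1.26 with VPRP sgHBB (SE 0.448, adjusted p = 0.0156). The latter call was lost without VPRP sgHBB replicate 1 (adjusted p = 0.0735) or WT replicate 1 (log2 0.61, adjusted p = 0.278). Without WT replicate 2, which held 20 of the 25 FOSL1 reads of WT, FOSL1 was also called higher with active p300 (log2 1.85, adjusted p = 0.0312) and with D1399Y (log2 2.28, adjusted p = 0.0113). FOSL2 rose with VPRP NonTarget (log2 0.64, SE 0.176, adjusted p = 0.00219) and missed the threshold once VPRP NonTarget replicate 1 was left out (adjusted p = 0.0555). BATF3 rose with D1399Y (log2 0.74, SE 0.182, adjusted p = 0.00195) and likewise missed it without D1399Y replicate 2 (adjusted p = 0.111) or WT replicate 1 (adjusted p = 0.101). With VPR, FOSL2 was just short of a call (log2 -0.52, adjusted p = 0.0514) and was called lower in 7 of 19 other settings, among them RLE factors (adjusted p = 0.0421). BATF3 was called higher with VPR without WT replicate 2 (log2 0.73, adjusted p = 0.029).

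**Figure D3:**
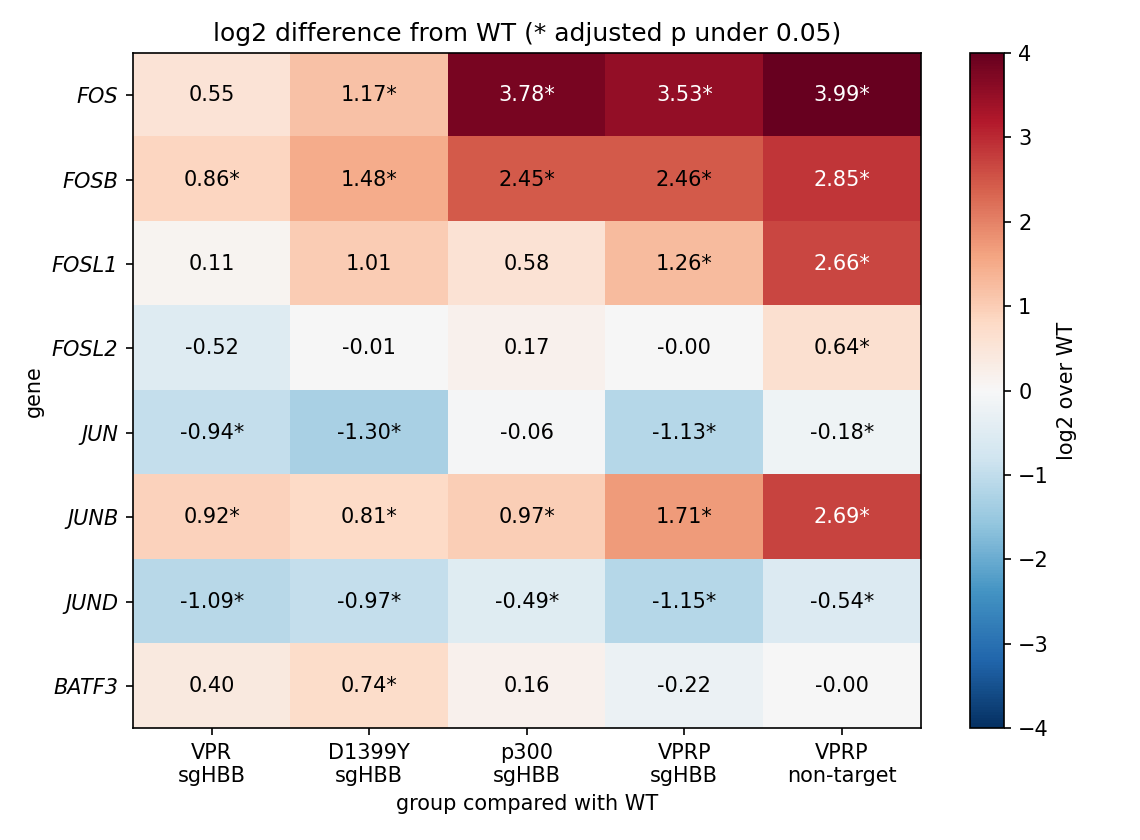
Log2 difference of each gene from WT in the 5 fusion groups, with the value in each cell, red for higher and blue for lower, and a star for an adjusted p under 0.05. FOS is darkest in active p300 (3.78) and both VPRP groups (3.53 and 3.99), and JUN is near 0 in active p300 (-0.06) but at -0.94 to -1.30 in VPR, D1399Y and VPRP sgHBB.

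VPRP joins VPR to p300, and its 2 groups differed by guide. With the HBB guide, FOS was at 13.6 and 17.0 CPM, JUNB at 26.1 and 25.1 CPM and JUN at 298 and 286 CPM. With the non-target guide FOS was at 21.6 and 20.6 CPM, JUNB at 54.7 and 46.6 CPM and JUN at 572 and 557 CPM. For all 3 genes both libraries with the HBB guide lay below both with the non-target guide. Of the 8 members, 6 were lower with the HBB guide and none was higher, where 29.3% of all genes were called (14.9% higher and 14.4% lower). JUNB differed by -0.98 (SE 0.118, adjusted p = 6.57e-08), JUN by -0.95 (SE 0.0702, adjusted p = 1.11e-12), JUND by -0.61 (SE 0.0768, adjusted p = 1.49e-07) and FOSL1 by -1.40 (SE 0.348, adjusted p = 0.00235) on the log2 scale. FOS (log2 -0.46, SE 0.139, adjusted p = 0.0114) and FOSL2 (log2 -0.64, SE 0.174, adjusted p = 0.00493) were also called. Without VPRP NonTarget replicate 1 the calls of FOSL1, FOSL2 and FOS were lost (adjusted p = 0.0745, 0.0968 and 0.104), that of FOS also without VPRP sgHBB replicate 1 (adjusted p = 0.188) and that of FOSL2 also without VPRP sgHBB replicate 2 (adjusted p = 0.0662). These groups also differed in EP300 reads, which were 3.13-fold fewer with the HBB guide, and lie on opposite sides of the MAGEA10 split, so the guide cannot be told apart from these.

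Set beside its parts, VPRP sgHBB had FOSB near active p300, and JUN and JUND nearer to VPR than to active p300. FOS was not called different from active p300, though the VPRP sgHBB libraries (13.6 and 17.0 CPM) lay below those of active p300 (17.3 and 19.3 CPM). JUN was at 292 CPM, between D1399Y (260 CPM) and VPR (333 CPM). EP300 reads also differed, at 375 CPM against 1124 CPM in active p300 and 98.7 CPM in VPR. VPRP sgHBB and VPR lie on opposite sides of the MAGEA10 split, and the part of either was not tested. Against active p300, JUNB was higher and JUN and JUND lower, 3 of 8 members where 27.9% of all genes were called (14.3% higher and 13.7% lower). FOS over active p300 was -0.25 (95% interval -0.54 to 0.03) and FOSB 0.01 (-0.39 to 0.42), while JUN was at -1.07 (SE 0.0703, adjusted p = 5.4e-14) and JUND at -0.67 (SE 0.0768, adjusted p = 2.68e-08). Against VPR, 5 members were higher and 2 lower, where 49.8% of all genes were called (24.7% higher and 25.1% lower). FOS was 7.87-fold and FOSB 3.04-fold higher, and JUNB 1.73-fold higher. JUN differed by -0.19 (SE 0.0703, adjusted p = 0.0264), which failed the threshold without VPRP sgHBB replicate 2 (adjusted p = 0.13), without VPR replicate 1 (log2 -0.10, adjusted p = 0.287) and in a fit of these 2 groups alone (adjusted p = 0.175). JUND differed by -0.06 (95% interval -0.22 to 0.10). That JUN call was also lost without either VPRP NonTarget library (adjusted p = 0.0543 and 0.0544). The FOSL1 call (log2 1.15, adjusted p = 0.0292) was lost without VPRP sgHBB replicate 1 (adjusted p = 0.116), VPRP sgHBB replicate 2 (0.051) or VPR replicate 2 (0.178). The FOSL2 call (log2 0.51, adjusted p = 0.0283) was lost with DESeq2 (adjusted p = 0.0507) and without VPRP sgHBB replicate 1 (0.151) or either VPR library (0.0545 and 0.118), and the BATF3 call (log2 -0.62, adjusted p = 0.00653) without VPRP sgHBB replicate 2 (adjusted p = 0.0712). Against D1399Y, 4 members were higher with VPRP sgHBB and 2 lower, where 46.8% of all genes were called (23.7% higher and 23.1% lower). FOS was 5.12-fold, FOSB 1.98-fold and JUNB 1.86-fold higher and BATF3 1.95-fold lower, while the calls of JUN (log2 0.17, adjusted p = 0.0495) and JUND (log2 -0.18, adjusted p = 0.0493) were lost in most other settings.

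VPRP NonTarget had the highest mean of FOS, FOSB, FOSL1, FOSL2 and JUNB of the 6 groups. Against VPR, 7 members were higher and none lower, where 55.3% of all genes were called (28.2% lower and the others higher), with BATF3 the exception (log2 -0.40, 95% interval -0.77 to -0.02, adjusted p = 0.0651; 0.0395 with no filter on low counts). Against D1399Y, 7 were higher and BATF3 was lower (log2 -0.74, SE 0.179, adjusted p = 0.000642), where 58.1% of all genes were called (29.4% higher and 28.7% lower). The BATF3 and FOSL2 calls against D1399Y were lost without D1399Y replicate 2 (adjusted p = 0.0587 and 0.0922). Against active p300, FOSL1, FOSL2 and JUNB were higher and none was lower, 3 of 8 where 46.8% of all genes were called (23.6% higher and 23.2% lower). FOSL1 was 4.24-fold (log2 2.08, SE 0.372, adjusted p = 2.17e-05) and JUNB 3.28-fold (log2 1.71, SE 0.125, adjusted p = 2.82e-13) above active p300, while FOS (log2 0.21, 95% interval -0.07 to 0.49) and FOSB (log2 0.40, 95% interval 0.01 to 0.79, adjusted p = 0.087) did not pass, FOSB except in a fit of these 2 groups alone (adjusted p = 0.0424).

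Ranked by group mean, FOS ran from WT through VPR, D1399Y, VPRP sgHBB and active p300 to VPRP NonTarget, and the one step between neighbours that passed the test was from D1399Y to VPRP sgHBB (log2 2.36, SE 0.181, adjusted p = 7.06e-13). FOSB had the same order but for the near-equal active p300 and VPRP sgHBB (log2 0.01). Its called steps were from WT to VPR and from D1399Y to active p300. The FOSB call from WT to VPR (adjusted p = 0.0433) was lost in several other settings, DESeq2 among them (adjusted p = 0.0668). For FOSL1 the last step, from VPRP sgHBB to VPRP NonTarget, was called, and for FOSL2 the last, from active p300 to VPRP NonTarget (log2 0.46, adjusted p = 0.0253). That FOSL2 call was lost with DESeq2 (adjusted p = 0.0532), without p300 replicate 2 or without VPRP NonTarget replicate 1. JUN ran from D1399Y through VPRP sgHBB, VPR, VPRP NonTarget and active p300 to WT, with its widest step between VPR and VPRP NonTarget (log2 0.76, SE 0.07, adjusted p = 3.61e-11). The steps of JUN from VPRP NonTarget to active p300 (log2 0.12, adjusted p = 0.157) and from active p300 to WT (log2 0.06, adjusted p = 0.509) did not pass, though the libraries did not overlap at either step, and the first was called in a fit of those 2 groups alone (adjusted p = 0.0216). JUND ran from VPRP sgHBB through VPR, D1399Y, VPRP NonTarget and active p300 to WT, with called steps from D1399Y to VPRP NonTarget (log2 0.42) and from active p300 to WT (log2 0.49). JUNB had called steps from WT to D1399Y (log2 0.81), from active p300 to VPRP sgHBB (log2 0.73) and from VPRP sgHBB to VPRP NonTarget (log2 0.98). No step between neighbours was called for BATF3.

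Across the 12 libraries, FOS and FOSB had a Pearson correlation of 0.96 in log2 CPM and JUN and JUND one of 0.89, while FOS and JUN had one of 0.17. JUNB had values of 0.89 with FOSL1, 0.84 with FOSB and 0.78 with FOS. BATF3 was at or below -0.06 with every other member. These values describe 6 groups of 2 libraries and carry no test.

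Other immediate early genes were followed from a list of 23, of which 21 were tested. With active p300, 11 of 21 were higher and 2 lower than with D1399Y, and 12 were higher and none lower than with VPR, with medians of 0.47 and 0.62 on the log2 scale. Of all genes, 15.4% were higher and 15.0% lower in the first comparison and 17.2% and 17.0% in the second. D1399Y against VPR had 2 higher and 2 lower, near the 10.2% and 10.9% of all genes. EGR1, a zinc finger factor induced by the same signals as FOS, was at 91.1 and 95.3 CPM with active p300, 16.9 and 15.9 CPM with D1399Y, 6.14 and 3.76 CPM with VPR and 3.43 CPM in both WT libraries. EGR1 was thus above D1399Y and VPR in both active p300 libraries (log2 2.51, SE 0.112, adjusted p = 1.29e-18 against D1399Y; log2 4.22, SE 0.135 against VPR). Unlike FOS, EGR1 was also called higher with D1399Y than with VPR (log2 1.72, SE 0.16, adjusted p = 5.87e-10), though the 2 genes' differences were not tested against each other. ARC, which encodes a neuronal early protein, was higher with active p300 than with D1399Y (log2 2.06, SE 0.158, adjusted p = 3.24e-12), as was CCN2, a matricellular growth factor (log2 1.47, SE 0.253).

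Among 19 tested genes for other zipper factors that share partners or sites with AP-1, 3 were higher and 3 lower with active p300 than with D1399Y (median -0.05), near the shares of all genes. ATF3, a stress-induced factor that can pair with JUN, was at 532 and 527 CPM with active p300, 41.4 and 44.2 CPM with D1399Y, 47.6 and 53.6 CPM with VPR, 111 and 99.2 CPM in WT, 76.8 and 70.8 CPM with VPRP sgHBB and 113 and 114 CPM with VPRP NonTarget. Active p300 stood above every other library, VPRP included. The log2 difference from D1399Y was 3.63 (SE 0.0825, adjusted p = 1.13e-27). DDIT3, the stress factor CHOP, was at 10.5 and 10.8 CPM with active p300 and 1.16 and 1.04 CPM with D1399Y (log2 3.26, SE 0.249, adjusted p = 2.81e-12), and unlike ATF3 it was as high with VPRP NonTarget, at 11.4 and 11.1 CPM. MAF and MAFG, which bind related sites, were both lower with active p300 than with D1399Y (log2 -0.85 each, SE 0.0991 and 0.118). MAF was at 28.8 CPM with active p300, 51.8 CPM with D1399Y and 28.7 CPM in WT. MAFG was at 17.2 CPM with active p300, 31.1 CPM with D1399Y and 30.1 CPM in WT.

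**Figure D4:**
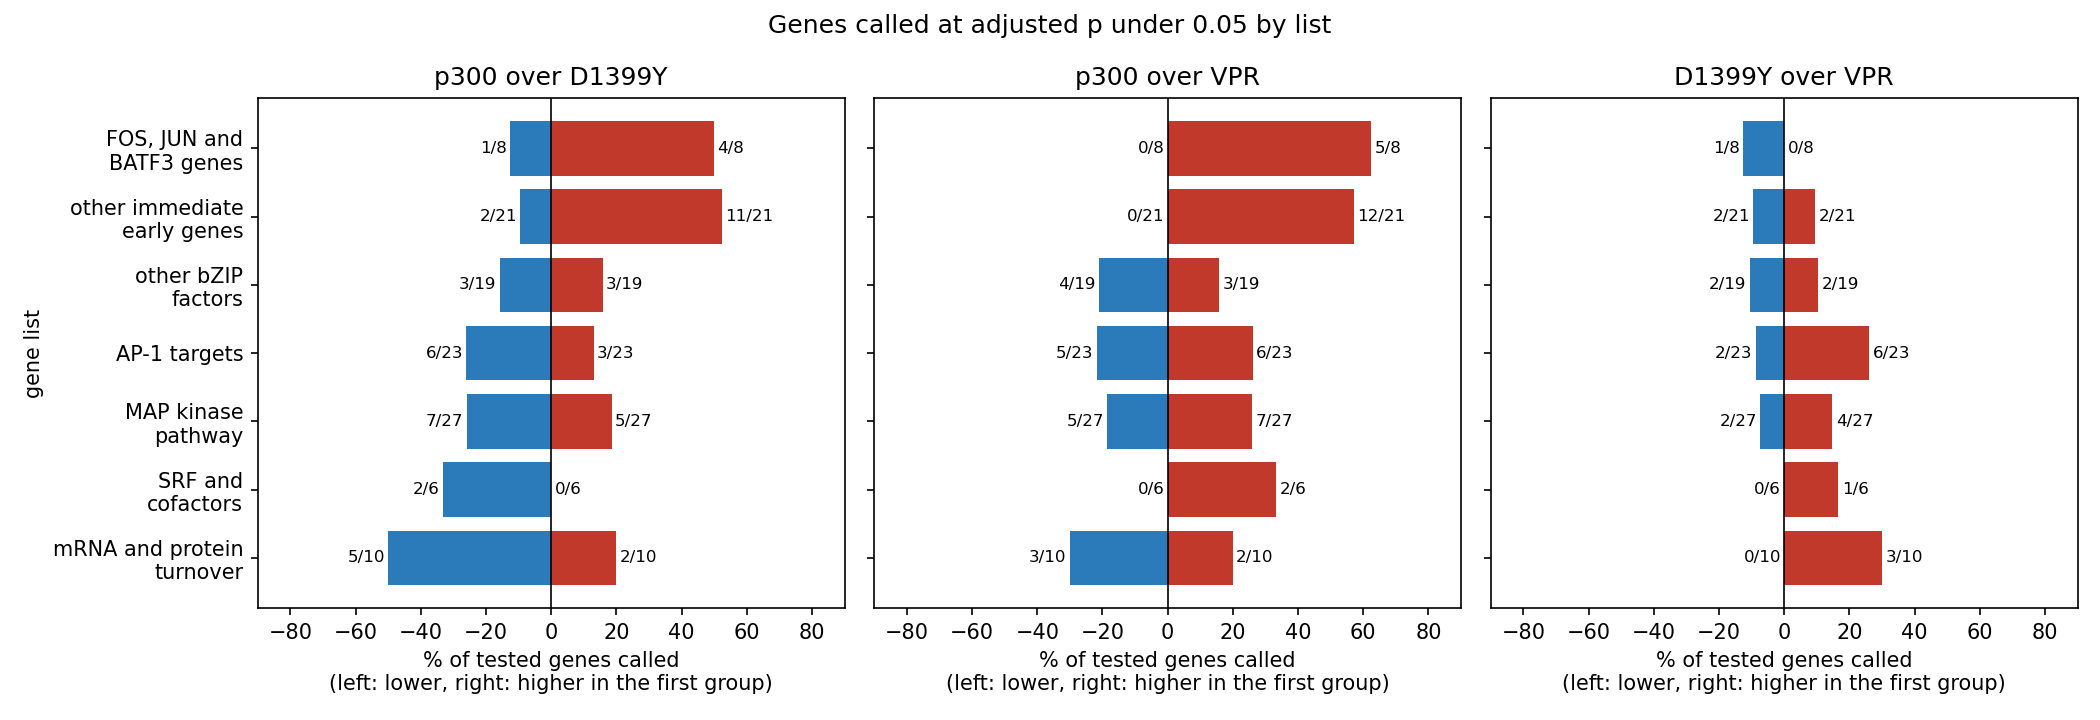
Percent of each list's tested genes called higher (right, red) or lower (left, blue) in active p300 over D1399Y, active p300 over VPR and D1399Y over VPR, with counts beside the bars. The FOS, JUN and BATF3 genes (4 of 8 and 5 of 8) and the other immediate early genes (11 of 21 and 12 of 21) lean to the right in the first and second panels, while AP-1 targets hold calls on both sides.

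Of 27 MAP kinase pathway genes, 5 were higher and 7 lower with active p300 than with D1399Y, where 15.4% of all genes were higher and 15.0% lower, so the share higher was near that of all genes. Among those lower were the stress kinase gene MAPK13 (log2 -0.86, SE 0.212) and RPS6KA4, a kinase downstream of MAP kinases (log2 -0.64, SE 0.0992). MAPK13 was at 5.77 CPM with active p300, 10.5 CPM with D1399Y and 5.44 CPM with VPRP sgHBB. It was at 0.595 CPM in WT, 0.851 CPM with VPR and 0.725 CPM with VPRP NonTarget, a split by the same groups as MAGEA10. The MAPK13 call was lost without p300 replicate 1 (adjusted p = 0.0793). Against VPR, 7 were higher and 5 lower, where 17.2% and 17.0% of all genes were. Of 6 genes for serum response factor and its cofactors, 2 were lower with active p300 than with D1399Y, SRF itself (log2 -0.24, SE 0.0779, adjusted p = 0.0164) and ELK4 (log2 -0.43, SE 0.144, adjusted p = 0.0203). SRF lost its call without p300 replicate 1 (adjusted p = 0.137) or D1399Y replicate 1 (adjusted p = 0.279), and ELK4 without any one of these 4 libraries (adjusted p = 0.0519 to 0.147). Of 10 genes that act on the turnover of early gene RNA or of JUN protein, 2 were higher and 5 lower with active p300 than with D1399Y. The 4 largest were falls, in ZFP36L2 (log2 -0.62, SE 0.0782), ZFP36L1 (log2 -0.49, SE 0.115), HNRNPD (log2 -0.45, SE 0.0678) and KHSRP (log2 -0.39, SE 0.074), which bind AU-rich RNA elements.

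A list of 35 textbook AP-1 target genes had 23 tested members. With active p300, 3 were higher and 6 lower than with D1399Y (median 0.08), and 6 were higher and 5 lower than with VPR (median 0.27), where 30.4% and 34.3% of all genes were called. HMOX1, heme oxygenase 1, was at 97.5 and 98.8 CPM with active p300 and 21.5 and 27.5 CPM with D1399Y (log2 2.01, SE 0.1, adjusted p = 3.42e-17). HBEGF, an EGF receptor ligand, was also higher (log2 0.99, SE 0.178, adjusted p = 5.78e-05). LIF, a cytokine of the interleukin 6 family (log2 -1.07, SE 0.241, adjusted p = 0.000852), and SPHK1, a sphingosine kinase (log2 -0.96, SE 0.15, adjusted p = 7.91e-06), were lower. LIF was at 3.69 CPM with active p300, 7.76 CPM with D1399Y and 1.94 CPM in WT. SPHK1 was at 10.4 CPM with active p300, 20.3 CPM with D1399Y and 9.19 CPM in WT. Of 10 tested heat shock genes, 1 was higher and 4 were lower with active p300 than with D1399Y, and of 13 mitochondrial transcripts none was called in either direction.

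VPR was set against WT in the same lists, where 13.8% of all genes were higher and 11.5% lower. Of the other immediate early genes, 5 were higher and 2 lower of 21, with ARC at 8.18 ± 1.01 CPM against 2.03 ± 1.06 CPM (SD, n = 2; edgeR's adjusted p = 1.91e-08) and ATF3 lower by -1.05 on the log2 scale (SE 0.0807, adjusted p = 7.55e-12). EGR1 was at 0.54 (SE 0.215, adjusted p = 0.0618). Of the zipper factors 3 were higher and 5 lower of 19, with DDIT3 at -1.60 (SE 0.289) and MAFA at 1.14. Of the AP-1 targets 6 were higher and 1 lower of 23, of the MAP kinase genes 2 were higher and 5 lower of 27, and of the heat shock genes 5 were higher and none lower of 10.

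The genes whose pattern over the 12 libraries was most like each member's were sought among 3226 genes with a mean log2 CPM of at least 1 and group means at least 1 apart. For FOS they were DHRS2, EGR1 and TMEM108 (Pearson r = 0.98 each). For FOSB they included ALS2CL and CEP85L (0.98 each), for FOSL1 CABYR, MRFAP1P1 and H19 (0.93, 0.92 and 0.91) and for FOSL2 ZNF256, SNTG2 and ATP2A1 (0.91, 0.88 and 0.86). For JUN they were HFM1, IFRD1 and SNHG1 (0.96, 0.94 and 0.94), for JUND EPB41L4A-AS1, IFRD1 and PARP16 (0.91, 0.90 and 0.90) and for JUNB TNFRSF12A, ADAT3 and PAXBP1-AS1 (0.98, 0.97 and 0.97). BATF3 had lower values, with HOXA-AS2, HOXA11 and LRRC4 (0.87, 0.84 and 0.84). DHRS2, a short-chain dehydrogenase, was at 156 ± 7.48 CPM (SD, n = 2) with active p300, 1.69 ± 0.232 CPM with D1399Y and 1.27 ± 0.627 CPM with VPR. IFRD1, which was near both JUN and JUND, was at 75.3 ± 0.117 CPM with active p300, 36.8 ± 2.69 CPM with D1399Y, 47.5 ± 8.18 CPM with VPR and 94.4 ± 4.48 CPM in WT. With so few groups, many genes share such orders by their group means, and the likeness is a description.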

How the data were processed

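The authors' deposited values for the 12 RNA libraries are raw counts, whole numbers for each gene ID. STAR 2.5, HTSeq 0.6.1, DESeq2 1.24.0 and the build hg19 are named per the submitters' processing notes, with no order. Strand setting and annotation release: not given in the sources used here. Overlapping and antisense genes may therefore share reads that cannot be told apart. Symbols matched 45038 of 48162 IDs, and IDs without one took 0.627% to 0.706% of counts. The 10 H3K27ac samples were not analysed here.

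Low genes were removed by filterByExpr (at least 10 counts in a group's worth of libraries and 15 in all), and the rest were scaled with TMM factors and fitted with edgeR 4.0.16 in R 4.3.3, with a mean for each of 6 groups over all 12 libraries. All 15 pairs of groups were tested by quasi-likelihood with Benjamini-Hochberg adjustment at 0.05. The SE is the log2 difference over the square root of the F statistic. The series calls the 2 libraries of a group biological replicates without naming their source, so p-values rest on the spread between these samples alone. The variance between replicates ran from 2.86 times the Poisson value in VPRP NonTarget to 13.67 times in VPR. It was 3.46 times in WT, 3.60 times in active p300, 5.17 times in D1399Y and 8.18 times in VPRP sgHBB. The fit shares its estimate of the spread over the 6 groups, so it can understate the spread in VPR and VPRP sgHBB.

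Alternatives were RLE and upper-quartile factors, no filter, a filter of 1 CPM in at least 2 libraries, DESeq2 1.42.0, a replicate block, fits to just the groups compared, and each of 12 libraries left out. On simulated data for p300 against D1399Y (15984 genes tested), the fit recovered 53.3% of 1.5-fold changes, 73.4% of 2-fold changes and 92.4% of 4-fold changes, with 7 false calls. The simulation changed 60 to 66 tested genes at each size, in p300 alone. In the data 30.4% of genes were called, so these rates may not hold there. The members, lists and promoter motifs were chosen with earlier results of these data known. From each list the text names up to 4 genes with the largest called changes in p300 against D1399Y and in VPR against WT at a mean log2 CPM of at least 0. One gene with a pattern like FOSB is not reported here. Promoters are from RefSeq, GRCh38.p14. Figures were drawn with matplotlib 3.10.9.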

Additional observations from a re-analysis of the deposited data

How the results depend on the processing

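For the 8 members, 15 comparisons under 19 other settings gave 2280 values: 2192 kept their direction and their side of the threshold, 73 were no longer called, 15 became called and none reversed. With upper-quartile factors the calls in active p300 against D1399Y split into 3005 higher and 2043 lower, against 2575 and 2501. In VPR against WT they split into 2554 and 1630 with upper-quartile factors and 2074 and 2153 with RLE factors, against 2307 and 1913. The calls of FOS, FOSB, JUN and JUND in active p300 against D1399Y and against VPR held under all 19. Leaving out a library moved the number of genes called in active p300 against D1399Y from 5076 to between 3199 (without p300 replicate 1) and 5613. In D1399Y against VPR the 3527 calls ran from 1963 (without D1399Y replicate 1) to 3779. In VPR against WT the 4220 calls ran from 2560 (without WT replicate 2) to 4311. In VPRP sgHBB against VPRP NonTarget the 4898 calls ran from 3183 (without VPRP NonTarget replicate 1) to 5449. In VPRP sgHBB against active p300 the 4660 calls ran from 3068 (without p300 replicate 1) to 5234. A group left with 1 library is assumed to vary like the others, and its test has fewer samples. Counts also fell by over 1.5 times without D1399Y replicate 1 (3235, p300 against D1399Y), VPR replicate 2 (2191, D1399Y against VPR; 2785, VPR against WT), WT replicate 1 (2735) and VPRP NonTarget replicate 2 (3213).

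The labels give the replicate numbers no shared source, and differences between replicates correlated at -0.15 to 0.13 between groups. The numbers were therefore not used as pairs in the main fit. Such a correlation cannot show whether part of the genes shared a batch. With the replicate number as a block, 4837 genes were called in active p300 against D1399Y, 5536 in active p300 against VPR and 3323 in D1399Y against VPR. Among the members the block added FOSL2 in VPR against WT (adjusted p = 0.0378, against 0.0514) and removed JUN (0.0619) and JUND (0.0522) in VPRP sgHBB against D1399Y. Depth limits FOSL1 most, at 5 to 33 reads a library outside VPRP NonTarget.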
